A study of Homo sapiens with 2 samples.

Results

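The features described here lie in 1 row on chromosome 17 of the CHM13 v1.1 genome, at the place where RefSeq has the genes of U2 small nuclear RNA (snRNA). They were chosen as LOFF_G0001326, LOFF_G0001327 and every feature of chromosome 17 whose length was within 5 bases of that of LOFF_G0001326 and whose start lay within 200000 bases of it. The rule found 10 of the 63494 features of the count tables. LOFF_G0001326 and LOFF_G0001327 were proposed with the counts of both libraries known. The members count as chosen by these counts and by length and position, so all their counts are given as a description, with no test. The data were PAR-CLIP libraries of HEK293T, an established human embryonic kidney cell line. In PAR-CLIP, living cells take up a photoreactive nucleoside, UV light ties RNA to the proteins in contact with it, and the RNA that is purified with 1 protein is sequenced. One library came from cells that stably expressed SFB-Ku80, a Ku80 with tandem FLAG and SBP tags, and 1 from cells with the SFB empty vector. Cells of both groups received 0.1 mM 6SG overnight and 0.4 J/cm2 of 365 nm UV, and the RNA was purified over streptavidin resin and then FLAG resin. The labels call the expression stable, while the study's methods give the Ku80 plasmid as one for transient transfection. Cells of both groups also hold their own untagged Ku80. The 2 libraries are called the Ku80 library and the vector library here.

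With 1 library per group, no difference between the groups has a replicate check, and no p-value is given. Intervals are at 95% and cover counting error only, since PCR can copy 1 molecule into many reads. The tables held 19775629 counts for the vector library and 17892815 for the Ku80 library.

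U2 snRNA is a core part of the spliceosome, the machine that removes introns from pre-mRNA. Packed with proteins into a small nuclear ribonucleoprotein, it base-pairs with the branch point of the intron and so helps to set the splice site. The human U2 genes stand in a tandem array of nearly identical repeats, each with its own promoter, and the number of repeats differs between chromosomes. Ku80 and Ku70 form a ring that is best known for holding broken DNA ends, and the heterodimer also binds some structured RNAs.

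Of the 10 features, 9 were on the plus strand, each 191 bases long, and formed a regular row. The row began with CHM13_G0024410 (chr17:44116165-44116355) and went on with LOFF_G0001325 (chr17:44122352-44122542), LOFF_G0001326 (chr17:44128523-44128713), LOFF_G0001327 (chr17:44134682-44134872), LOFF_G0001328 (chr17:44140855-44141045), LOFF_G0001329 (chr17:44147017-44147207), LOFF_G0001330 (chr17:44153162-44153352), LOFF_G0001331 (chr17:44159309-44159499) and LOFF_G0001332 (chr17:44165457-44165647). From one start to the next were 6145 to 6187 bases, and the whole row covered 49483 bases. The remaining feature, CHM13_G0024414 (chr17:44237000-44237191), was 192 bases long, lay on the minus strand and began 71543 bases after the start of LOFF_G0001332. Each of the 10 features has a single exon. For names, features were paired with RefSeq genes of GRCh38.p14 by order along the chromosome and by length. The row lies after the feature paired with TMEM106A, and in the stretch of RefSeq that follows that gene 14 snRNA genes are listed, which are RNU2-1, the named gene of U2, and 13 entries known by LOC numbers. Of the 14, 11 are 191 bases long, and RNU2-1 itself is listed with 188. LOFF_G0001326 and LOFF_G0001327 go under the names LOC124904137 and LOC124904138. As the row has fewer features than RefSeq has genes and the lengths are equal, no copy can be told from its neighbours by order and length, and the copies are called by their IDs here.

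Of the features, 8 carried counts and 2 carried none. CHM13_G0024410 had 0 counts in both libraries and shares its exon with CHM13_G0024411, a feature of 185 bases that also had 0. CHM13_G0024414 had 0 counts in both libraries and lies on an exon of CHM13_G0024412, which had 174 counts in the vector library and 66 in the Ku80 library. The deposited counting did not assign a read that overlaps 2 features, so these zeros do not measure the RNA. The same holds for RNU2-2, the U2 gene of chromosome 11, whose feature CHM13_G0009395 is overlapped by another and had 0 counts in both libraries. Just outside the length limit of the rule lay CHM13_G0024411, 6 bases shorter than the copies, and CHM13_G0024406, 7 bases longer, with 10 counts in the vector library and 0 in the Ku80 library.

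The 8 counted copies were among the features with the most counts in both libraries. Together they held 1164468 counts in the vector library, 5.89% of all counts (Wilson interval 5.88 to 5.90%), and 924270 in the Ku80 library, 5.17% (5.16 to 5.18%). In the Ku80 library the copies LOFF_G0001326, LOFF_G0001325 and LOFF_G0001327 took ranks 3, 4 and 5 of all features, after CHM13_G0023424 and CHM13_G0023426, another pair of chromosome 17 that together had 46.0% of the counts of that library. In the vector library the same copies took ranks 4, 6 and 5. The other 5 copies lay between ranks 22 and 34 in the vector library and between ranks 14 and 23 in the Ku80 library. A read that maps to several copies was counted at each reported place, so the sum can hold 1 read several times. The counting command did not ask for pairs to be counted as 1, so both reads of a pair may have been counted, and the counting intervals are then too narrow. If a read was counted at most once per copy, the reads behind the sum numbered at least as many as the counts of the highest copy, 294938 in the vector library and 175917 in the Ku80 library.

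**Figure D1:**
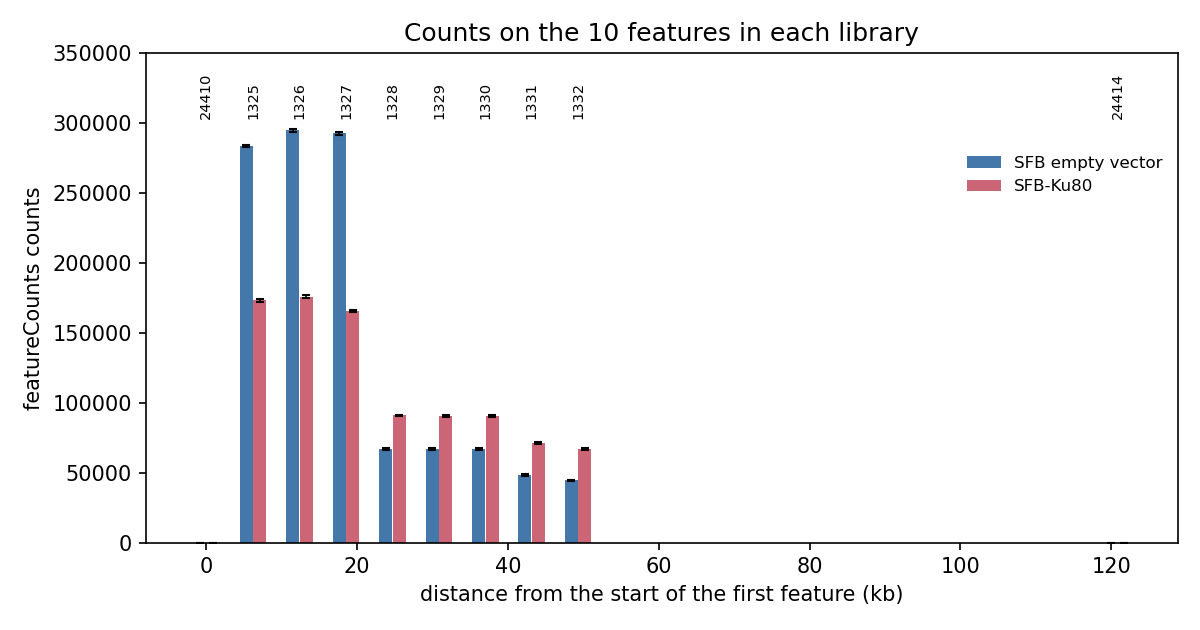
Counts on the 10 features (vertical axis) by distance from the start of the first feature (horizontal axis, kb), as bars from 0 for SFB empty vector (blue) and SFB-Ku80 (red), with exact Poisson 95% intervals and the last digits of each ID above. The first 3 counted copies hold at least 283489 counts each in SFB empty vector and the 5 that follow at most 66889, and the step is smaller in SFB-Ku80.

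The counts were not even along the row, and they fell in steps. LOFF_G0001325 had 283489 counts in the vector library and 173114 in the Ku80 library. LOFF_G0001326 had 294938 and 175917, the most of any copy in both libraries. LOFF_G0001327 had 292622 and 165392. These copies, the first 3 of the counted ones along the chromosome, stood close together in each library, with a coefficient of variation of 2.09% in the vector library and 3.18% in the Ku80 library. Their exact Poisson intervals did not overlap in either library. LOFF_G0001327 had 0.785% fewer counts than LOFF_G0001326 in the vector library and 5.98% fewer in the Ku80 library. LOFF_G0001328 had 66851 and 90880 counts, LOFF_G0001329 had 66889 and 90657, and LOFF_G0001330 had 66787 and 90285. The intervals of LOFF_G0001328, LOFF_G0001329 and LOFF_G0001330 overlapped in each library, for example 66345 to 67360 for LOFF_G0001328 and 66281 to 67295 for LOFF_G0001330 in the vector library. These 3 copies were not ranked. Lowest were LOFF_G0001331 with 48344 and 71251 counts and LOFF_G0001332, the last of the row, with 44548 and 66774. The intervals of these last copies did not overlap each other or those of the copies before them. Copies can share reads, and the intervals treat their counts as separate, so the overlaps are a description and no test.

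The largest step lay between LOFF_G0001327 and LOFF_G0001328, which are neighbours 6173 bases apart. It was 4.38-fold in the vector library and 1.82-fold in the Ku80 library. From LOFF_G0001330 to LOFF_G0001331 the counts fell again, 1.38-fold and 1.27-fold. The highest copy had 6.62 times the counts of the lowest in the vector library and 2.64 times in the Ku80 library. Over the 8 counted copies the coefficient of variation was 82.6% in the vector library and 40.9% in the Ku80 library, where Poisson counting alone would give 0.262% and 0.294%. Over all 10 features, the zeros of the overlapped ones included, it was 105.2% and 69.4%. Among LOFF_G0001328, LOFF_G0001329 and LOFF_G0001330 it was 0.0771% and 0.332%, and Poisson counting of separate reads would give 0.387% and 0.332%. These 3 copies thus varied no more than counting of separate reads would give. Since a read can be counted on several copies, their counts are not separate, and the Poisson values serve as a scale only. The step from LOFF_G0001327 to LOFF_G0001328 was far larger than counting error.

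The steps set lower limits on how many reads were placed on one copy and not on another. If each read is counted once per copy, at least 228087 of the 294938 counts of LOFF_G0001326 in the vector library, or 77.3%, came from reads that were not counted on LOFF_G0001328. In the Ku80 library at least 85037 of 175917 did, or 48.3%. Counts of LOFF_G0001332 reached 15.1% of those of LOFF_G0001326 in the vector library and 38.0% in the Ku80 library. The copies therefore did not share all their reads, and the lower limit on the part that was not shared was larger in the vector library. Which bases of the copies or of their flanks set them apart was not examined, since no sequence of the copies was used here.

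Between the libraries, raw counts differed in opposite ways at the 2 ends of the row. On the first 3 counted copies, the Ku80 library had 0.591 times the raw counts of the vector library, and on the last 5 it had 1.40 times. The first 3 made up 74.8% of the counts of the row in the vector library and 55.7% in the Ku80 library. The lowest raw ratio of a copy was 0.565, for LOFF_G0001327, and the highest 1.50, for LOFF_G0001332. A scaling shifts the ratios of all copies alike, so whether an end lies above or below an equal ratio depends on the total used. The raw ratio of the last 5 was 2.365 times that of the first 3, and scaling does not change this. The split into 3 and 5 copies was made after the values had been seen, and it is a description of these 2 libraries.

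For the comparison with other genes, counts were set against the counts outside the 45S rRNA units, with a pseudocount of 1, and the ratio of the Ku80 to the vector library was taken on the log2 scale. The log2 ratio was -0.31 for LOFF_G0001325, -0.34 for LOFF_G0001326 and -0.42 for LOFF_G0001327. It was 0.85 for LOFF_G0001328, 0.84 for LOFF_G0001329, 0.84 for LOFF_G0001330, 0.96 for LOFF_G0001331 and 0.99 for LOFF_G0001332. Counting intervals of these values were narrow, from 0.97 to 1.01 for LOFF_G0001332. No copy reached a ratio of 2, which 7.93% of the 17670 features with 100 or more counts in all did, and no copy was at 0.5 or below, where 50.5% of those features lay. Of the 8 copies, 5 had a log2 ratio above 0, as did 26.3% of the features. The median log2 ratio over all these features was -1.02, with quartiles of -2.03 and 0.06, so all 8 copies lay above the median feature, by 0.60 to 2.01. Among the features, the copies stood at percentiles from 64.1 for LOFF_G0001327 to 91.9 for LOFF_G0001332.

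**Figure D2:**
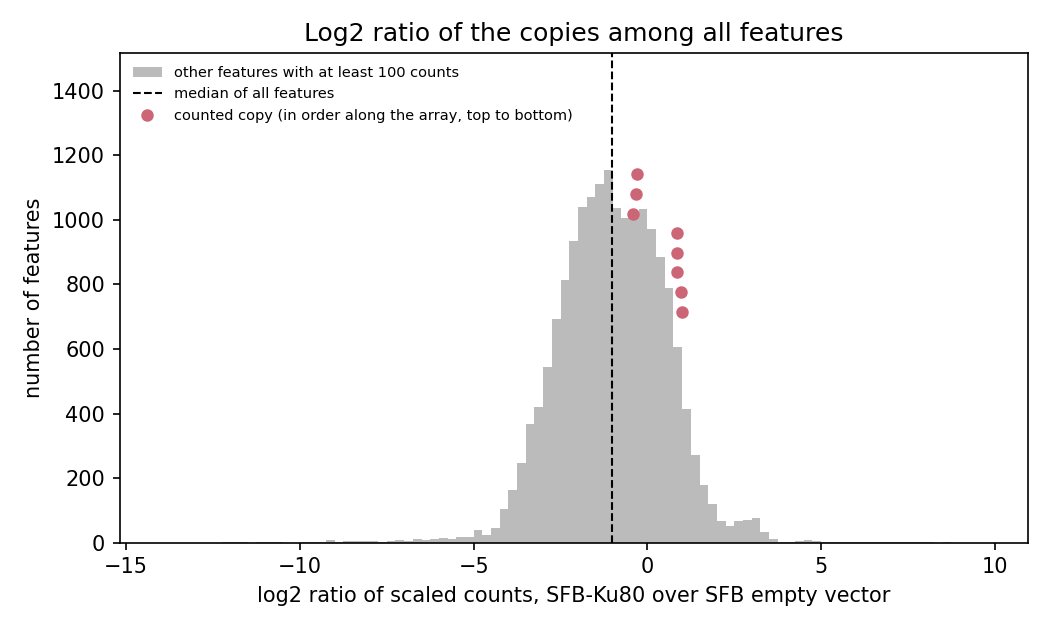
Number of features (vertical axis) by log2 ratio of SFB-Ku80 to SFB empty vector (horizontal axis) over features of at least 100 counts, in grey, with the median of all features as a dashed line at -1.02. Red points are the 8 counted copies, set at arbitrary heights in their order along the row from top to bottom, with the first 3 between -0.42 and -0.31 and the other 5 between 0.84 and 0.99.

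For the sum of the copies, the log2 ratio was 0.07 (counting interval 0.067 to 0.075), or 1.09 above the median feature. Its sign rested on the total that the counts were scaled to. Scaled to all counts it was -0.19, and scaled to the counts outside both the 45S units and the pair CHM13_G0023424 and CHM13_G0023426 it was 1.24. Those other features held a large part of the Ku80 library, 18.9% for the 45S units and 46.0% for the pair, against 2.90% and 2.26% of the vector library. Without them the 8 copies were 14.7% of the remaining counts in the Ku80 library and 6.21% in the vector library. A scaling shifts all features alike, so the distance to the median feature was 1.09 by construction under each of the 6 scalings, while the number of copies that reached a ratio of 2 was not the same. It was 5 of 8 outside the 45S units and the pair, where 30.5% of all features did, 5 with TMM factors, where 15.7% did, and 5 with median-of-ratios factors, where 16.3% did. It was 1 when scaled to all read pairs, where 8.29% of the features did, and 0 when scaled to all counts, where 5.52% did. More RNA of the row in the Ku80 purification and less RNA of other kinds cannot be told apart in these counts.

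**Figure D3:**
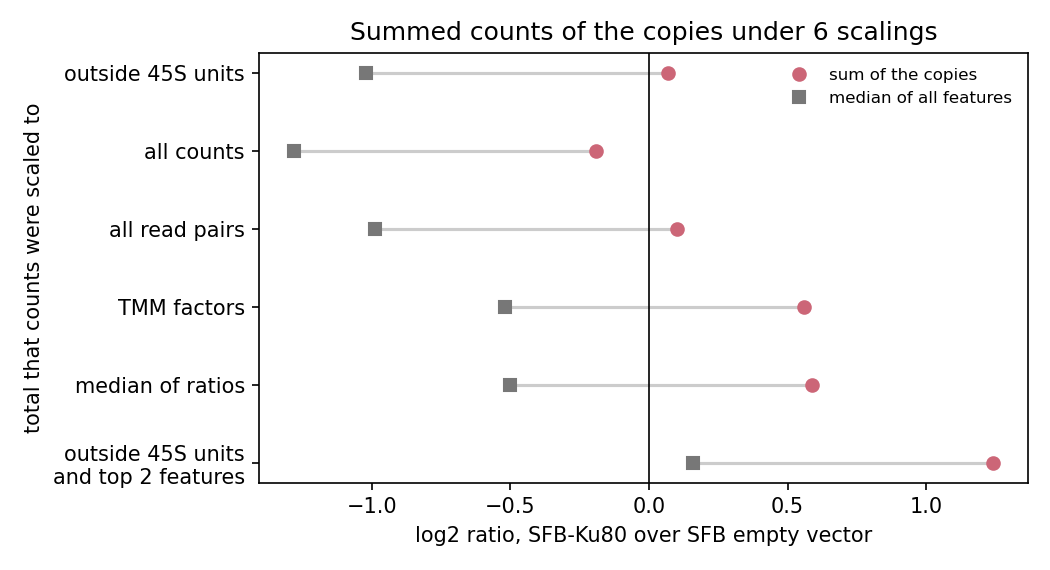
Log2 ratio of SFB-Ku80 to SFB empty vector (horizontal axis) for the summed counts of the copies (red points) and the median feature (grey squares), by the total that the counts were scaled to (vertical axis). The summed counts run from -0.19 to 1.24 and lie 1.09 above the median feature, a distance that scaling cannot change.

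Almost no read pair on the copies mapped to a single place in the genome. A pair that maps to 1 copy and to a place outside the row is also missing from the unique pairs. They therefore do not show how many pairs were shared between copies. In the table of uniquely mapped pairs, the copies had 0 of 6062669 pairs in the vector library, which at a floor of 3 pairs allows a share of up to 4.95e-05%. In the Ku80 library they had 3 of 1443251 pairs, a share of 0.000208% (Wilson interval 7.07e-05 to 0.000611%). All 3 lay on LOFF_G0001327, and all 3 stood in the second stranded column, the one that held 67.6% of the stranded pairs of all features in the Ku80 library and 75.1% in the vector library. In both stranded columns of the vector library the copies had 0 pairs. With 3 pairs the strand of the reads could not be set, as the interval for the share in the second column ran from 43.9 to 100%, and the deposited counts did not use strand. In the vector library 34 features had at least as many counts as the lowest copy, and the 8 copies were the only ones among them with 0 unique pairs. The other 26 had at least 7 unique pairs. In the Ku80 library 23 features did, 7 of them with 0 unique pairs, which were the copies other than LOFF_G0001327, and the 15 that were not copies had at least 8. Of all read pairs, 25.1% were multimapping in the vector library and 27.0% in the Ku80 library.

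**Figure D4:**
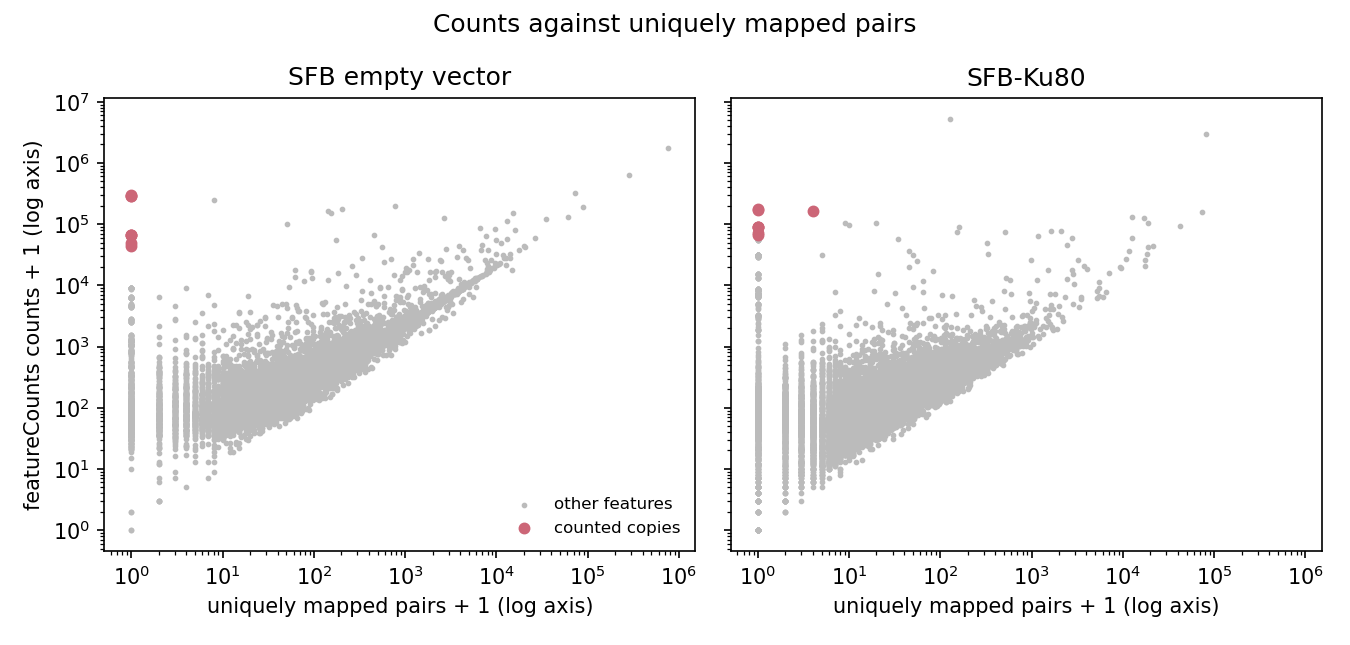
Counts plus 1 (vertical log axis) against uniquely mapped pairs plus 1 (horizontal log axis) for SFB empty vector on the left and SFB-Ku80 on the right, with other features in grey and the 8 counted copies in red. The copies stand at the left edge, at 0 unique pairs but for LOFF_G0001327 with 3 in SFB-Ku80, above all other features at that edge.

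The named genes before the row had far fewer counts than any counted copy in both libraries. NBR1, an autophagy receptor, had 1174 counts in the vector library and 711 in the Ku80 library, or 0.139 and 0.0843 per base of exon. TMEM106A, a membrane protein gene, had 19 and 46. CHM13_G0024409, which begins within TMEM106A on the other strand and ends before the row, had 14 and 5. Reads on both TMEM106A and CHM13_G0024409 would not have been assigned, so the counts of this pair are uncertain. Per base, LOFF_G0001326 held 1544 counts in the vector library and 921 in the Ku80 library. CHM13_G0024409, the nearest of these neighbours, ends at base 44089119, and the first counted copy begins at base 44122352. Apart from CHM13_G0024411 no other feature lies within the row. The counts therefore cannot show whether reads extended beyond the copies.

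Features of the same length elsewhere held few counts. Of the 244 features of the genome with 186 to 196 bases, 234 were not part of the set, and together they had 2175 counts in the vector library and 1542 in the Ku80 library. The copies held 99.8% of the counts of this length class in both libraries. Of the 234, 10 had at least 100 counts, and of these 3 were at least 2-fold higher in the Ku80 library and 6 at least 2-fold lower, beside 7.93% and 50.5% of all features.

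Among the other spliceosomal and related snRNA genes, 19 of 42 RefSeq genes could be paired with a feature, and 8 of the 19 were overlapped by another feature and had 0 counts, among them RNU12 of the minor spliceosome, RNU7-1 of histone mRNA processing and RN7SK, the regulator of transcription elongation. Of the 8 with at least 100 counts, 1 was at least 2-fold higher in the Ku80 library, 2 at least 2-fold lower and 5 neither, beside 7.93% higher and 50.5% lower among all features. Their median log2 ratio was -0.42, and that of all features -1.02. RNU5A-1, a gene of U5, which holds the exon ends together, had 91 counts in the vector library and 168 in the Ku80 library, a log2 ratio of 1.28. RNU5B-1, another U5 gene, had 165 and 225, a log2 ratio of 0.85. RNU6-9, a gene of U6 of the catalytic core, had 233 and 142, a log2 ratio of -0.31. RNU4ATAC of the minor spliceosome had 121 and 29, a log2 ratio of -1.62. RNVU1-31, a variant U1 gene, had the most counts of the list, 1237 and 412, with a log2 ratio of -1.18. None of these genes came near the counts of a single copy of the row.

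U1 snRNA, which pairs with the start of the intron, also comes from several nearly identical genes. RNU1-1 itself was not paired with a feature, so the 52 features of exactly 164 bases, the RefSeq length of RNU1-1, were used in their place. Their sum was 527693 counts in the vector library and 546593 in the Ku80 library, or 2.67% and 3.05% of all counts, and a log2 ratio of 0.45 against 0.07 for the row. Among them, 9 had at least 10000 counts over both libraries. CHM13_G0000538 on chromosome 1 had 163533 and 104572 counts, a log2 ratio of -0.24, and LOFF_G0000032 on chromosome 1 had 151781 and 96632, a log2 ratio of -0.25. CHM13_G0002994 on chromosome 1 had 21133 and 75461, a log2 ratio of 2.24. Under the scaling used here, these features had ratios on both sides of 0, as in the row, 5 below and 4 above. Of the 9, 3 were at least 2-fold higher in the Ku80 library and 2 at least 2-fold lower. Of all features, 7.93% and 50.5% were. No copy of the row was either. Unlike the copies of the row, each of the 9 had unique pairs, from 50 to 2947 in the vector library.

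The copies had lower log2 ratios than the 45S units, the long rRNA precursors. Reads on both a unit and an rRNA feature that it encloses would not have been assigned. The counts of a unit therefore do not measure the whole precursor. The 192 units with at least 100 counts had log2 ratios from 1.41 to 3.43 with a median of 3.06, and all 8 copies lay below that range. The SD of the log2 ratio was 0.37 over these units and 0.65 over the copies. Counts varied more among the 219 units than along the row, with a coefficient of variation of 137.1% in the vector library and 135.5% in the Ku80 library. CHM13_G0023424 and CHM13_G0023426 had log2 ratios of 4.83 and 4.28. No test of these differences was possible with 1 library per group.

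**Figure D5:**
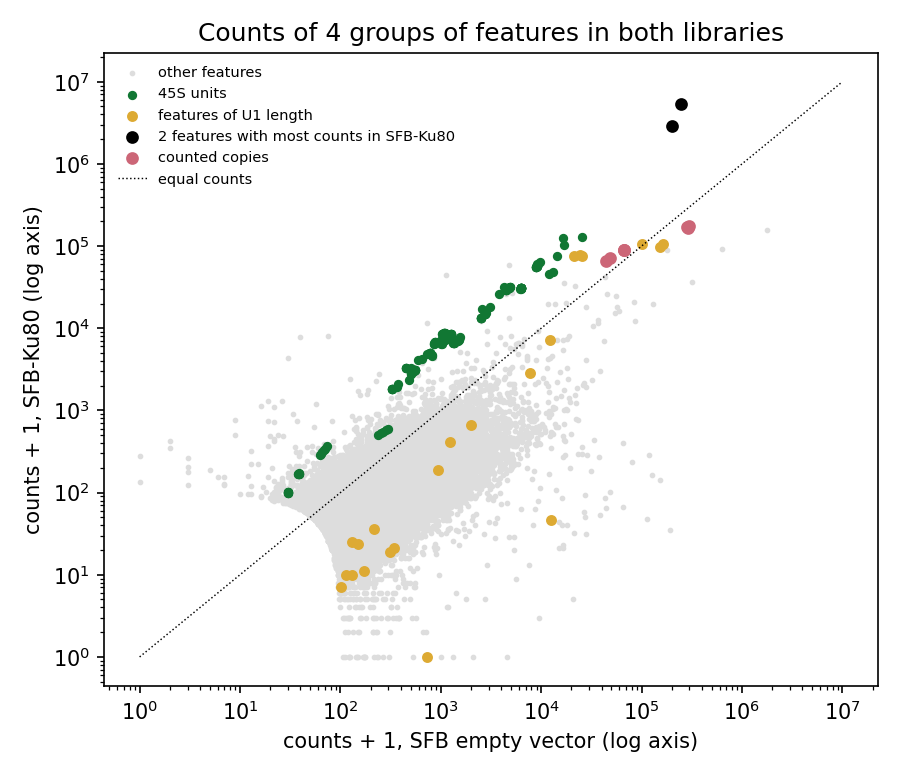
Counts plus 1 in SFB-Ku80 (vertical log axis) against SFB empty vector (horizontal log axis) for features with at least 100 counts. The 8 copies (red) lie on both sides of the dotted line of equal counts, with 3 below and 5 above, while the 45S units (green) and the pair CHM13_G0023424 and CHM13_G0023426 (black) lie above it, and features of U1 length (yellow) lie on both sides.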

How the data were processed

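The authors deposited raw counts per feature, made with featureCounts 2.0.2 from a STAR alignment (2.7.6a in the submitters' processing notes) to T2T-CHM13, draft 1.1 with version 4 of its gene annotation. Per the file headers, multimapping reads were counted at every reported place, pairs needed both ends mapped, the minimum fragment length was set to 18 bases, and strand was not used. Reads that overlap several features were not assigned. How many places STAR reported per read is not given in the sources used here. The deposited STAR tables hold counts of uniquely mapped pairs, unstranded and by strand. The files of reads along the rDNA repeat were not used.

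Groups come from the labels, with 1 library each. The 45S units are features within 1% of RefSeq 45S lengths that enclose features of at least 2 of the 18S, 5.8S and 28S lengths. Shares have Wilson intervals, counts exact Poisson intervals and ratios exact binomial ones. IDs were paired with RefSeq names by an order-keeping chain of spans of at least 2000 bases within 0.5%, with 4 of the 6 nearest pairs nearby, which paired 12626 IDs. Short genes were paired within 3 bases between such pairs. Named are all features the rule found, their neighbours, the features compared with and the snRNA list, and a call is a ratio of at least 2 with at least 100 counts. Members and lists were chosen with earlier results of these data known. In simulated counts of SFB-Ku80 against SFB empty vector over 63494 features, 100% of 200 changed features had the right sign. The planted changes were larger than the reported ratio of any copy, and the simulated features shared no reads. Of the simulated pairings, 99.7% were right. They covered long spans only, and the pairing of short genes was not simulated. Whether the ratios of the copies and the names of the snRNA genes are right was not tested. Alternatives used edgeR 4.0.16, Python 3.11.15 and scipy 1.17.1.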

Additional observations from a re-analysis of the deposited data

How the results depend on the processing

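No paired analysis was possible because each group has 1 library. The log2 ratio of the summed counts was 0.07. It was -0.19 scaled to all counts, 0.10 scaled to all read pairs, 0.56 with TMM factors, 0.59 with median-of-ratios size factors, 1.24 scaled outside the 45S units, CHM13_G0023424 and CHM13_G0023426, 0.06 scaled to features that had 10 or more counts in both, and 0.42 without LOFF_G0001326 and LOFF_G0001327. Each of these settings differs in its total or its copies alone, and the sign turned with all counts only. In unique pairs it was 4.13, from 3 pairs against 0, which is no measure of size. The other 8 of 16 settings left it at 0.07. Copies at a ratio of at least 2 numbered 0 as reported, 5 with TMM factors (15.7% of all features), 5 with median-of-ratios factors (16.3%), 5 without the 45S units and that pair (30.5%) and 1 with all read pairs (8.29%).

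The coefficient of variation, 105.2% in the vector library and 69.4% in the Ku80 library over 10 features, was 94.7% and 57.1% over the 9 of the same strand, of equal length or within 100000 bases, 82.6% and 40.9% over the 8 counted ones, and 123.4% and 88.6% over 12 features within 10 bases in length. These differences come from features with few or no counts. In unique pairs it was 316.2% in the Ku80 library, from 1 feature with 3 pairs, and could not be computed for the vector library. The share of unique pairs in the Ku80 library was 0% in the first stranded column and 1.35e-05% of all read pairs. Without LOFF_G0001326 and LOFF_G0001327 no unique pair was left for a strand share. The 3 and 0 unique pairs on the copies lie at or under the floor of 3 pairs, so their ratio is not read as a fold.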

Other observations

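Features of exactly 191 bases outside the row, a class looked at after the values had been seen, numbered 30, and 14 of them had at least 20 counts over both libraries. Together the 14 had 997 counts in the vector library and 129 in the Ku80 library, and 482 and 5 uniquely mapped pairs. All features together had 6062669 and 1443251 such pairs. Of the 14, 7 had 0 counts in the Ku80 library, which was so for 0.992% of the 27415 features with 20 or more counts. The highest was CHM13_G0056347 on chromosome 9 (chr9:98574185-98574375), with 175 counts in the vector library and 0 in the Ku80 library. In the stranded columns of the vector library, 460 of their pairs stood in the second column and 22 in the first. No name was given to these features, and the difference from the row was not tested.

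Among features of the RefSeq length of U1 genes, CHM13_G0046875 on chromosome 6 had 12471 counts in the vector library and 46 in the Ku80 library, a log2 ratio of -7.65, with 2947 and 21 unique pairs. It was singled out after its values had been seen.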
